A study of Homo sapiens with 6 samples.

Results

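A set of 8 nuclear receptor genes was followed in MCF10A cells, a non-tumorigenic and spontaneously immortalized line of human mammary epithelium, with and without the growth factors of its medium. The genes were ESR1, NR3C1, VDR, RARA, RARG, RXRA, PPARD and NR2F2, which are 8 of the 19198 genes listed in the table of normalized counts. They were chosen by name, with earlier results of these data known. Each identifier of the table was given its symbol from Gencode v44, and all 8 were listed and passed the filter on low values. The 3 control samples were grown in DMEM:F12 with 5% horse serum, insulin at 10 µg/ml, EGF at 20 ng/ml, cholera toxin at 100 ng/ml and hydrocortisone at 0.5 µg/ml. The 3 depleted samples were grown in the same medium and serum with none of these 4 additions. Hydrocortisone is a glucocorticoid and so a ligand of the receptor that NR3C1 encodes, while serum brings steroids and retinoids of its own, which were not measured. The labels and the columns give 3 samples per condition, while the design text of the series speaks of 2 replicates, and all 6 samples were used. They came from 1 cell line, the day of RNA collection is not given for them, and nothing states that replicates were separate cultures, so p-values measure the spread between these samples and this spread may be technical.

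Nuclear receptors are transcription factors that small lipid-soluble ligands switch on or off. Steroid receptors such as the estrogen and glucocorticoid receptors are held by chaperones until a steroid binds, and then sit on DNA as pairs of like chains. The retinoic acid, vitamin D and peroxisome proliferator-activated receptors instead pair with a retinoid X receptor on repeats of a short half-site, and recruit corepressors without ligand and coactivators with it. In the breast, the estrogen receptor is a hallmark of part of the luminal epithelium and of hormone-dependent cancers, and MCF10A cells are commonly used as a model with little of it.

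Sequence upstream of receptor genes bears on how these genes can be wired to each other, and 3 stretches are shown. They are the RARB gene, which is a textbook target of retinoic acid receptors, and NR2F1 and ESR1, whose counts differed widely between conditions. Each is the 250 bases before the start of the canonical transcript on the plus strand, from RefSeq on GRCh38.p14. The positions are chr3:25428013-25428262 for RARB, chr5:93582972-93583221 for NR2F1 and chr6:151807432-151807681 for ESR1. Capitals mark the half-site AGTTCA and, for RARB, the whole direct repeat that contains it.
RARB: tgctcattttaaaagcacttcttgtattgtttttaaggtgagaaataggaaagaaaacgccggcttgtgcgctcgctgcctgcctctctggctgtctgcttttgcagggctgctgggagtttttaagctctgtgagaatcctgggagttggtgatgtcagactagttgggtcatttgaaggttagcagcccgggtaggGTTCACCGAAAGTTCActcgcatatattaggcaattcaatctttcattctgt
NR2F1: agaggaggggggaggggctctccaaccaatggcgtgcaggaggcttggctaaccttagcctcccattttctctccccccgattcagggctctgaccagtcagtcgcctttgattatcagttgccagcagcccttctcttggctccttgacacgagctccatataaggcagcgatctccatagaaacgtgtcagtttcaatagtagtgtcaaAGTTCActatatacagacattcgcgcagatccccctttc
ESR1: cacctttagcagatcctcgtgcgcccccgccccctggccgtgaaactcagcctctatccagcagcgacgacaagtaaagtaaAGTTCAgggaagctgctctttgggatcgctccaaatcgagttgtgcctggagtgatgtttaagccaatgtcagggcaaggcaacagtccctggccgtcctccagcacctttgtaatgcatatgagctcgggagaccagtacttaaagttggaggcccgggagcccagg
In RARB the core GTTCA, which is AGTTCA without its first base, occurs again in the same direction with 6 bases between. The repeat reads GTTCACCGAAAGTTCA, at positions -52 to -37 from the transcript start. Counted between half-sites of 6 bases such as AGTTCA, the gap is 1 base shorter. This repeat was found in 20 of 34796 RefSeq promoter windows (0.0575%), read on both strands, and in 1 of the 96 windows of nuclear receptor genes. Each window ran from 250 bases before to 50 bases after a transcript start. The first base of AGTTCA lies at -39 in NR2F1, at -168 in ESR1 and at -42 in RARB, where it overlaps the repeat. AGTTCA alone is common, in 10.5% of all windows and 12.5% of receptor windows, and the other usual half-site AGGTCA is in 13.8% and 16.7%. Windows were given for 41 of the 46 nuclear receptor genes considered and for 7 of the 8 receptors, with VDR as the exception. These matches describe letters and not bound sites.

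Sequencing reached between 7472418 reads on genes (depleted replicate 3) and 28672630 (control replicate 2). A floor of 3 reads therefore equals 1.76 to 6.71 normalized counts, for counting error only. Pearson correlations of log2 values between samples of a condition were 0.941 for control replicates 1 and 2 and 0.969 for depleted replicates 2 and 3. Control replicate 3 (0.856 and 0.846) and depleted replicate 1 (0.872 and 0.875) lay farther from their partners. The labels call the cells luminal ductal. Of 11 luminal markers 8 were tested, with 0 called higher and 2 lower by limma (KRT19 and AREG), a median log2 fold change of -0.85, and summed levels of 9617 to 21864 normalized counts in controls and 18505 to 31771 in depleted samples. All 9 basal markers were tested, with 0 called higher and 2 lower by limma (TP63 and DSG3), a median of -1.15, and summed levels of 92260 to 142457 in controls and 51732 to 178160 in depleted samples. The luminal keratin KRT8 was present in all samples, at 2441.6 to 19305.1 normalized counts. An unadjusted limma p under 0.05 was reached by 4 of the luminal and 6 of the basal markers, against 20.0% of all genes. Among basal markers DESeq2 further called KRT17 higher and ITGA6 and COL17A1 lower. The luminal genes PGR, ELF5 and KIT were not analysed here. All 11 mesenchymal markers had depleted samples above all controls, where groups did not overlap for 25.6% of all genes. Of these 11 markers 10 were called higher, and their summed level was 4069 to 11574 normalized counts in controls and 141008 to 206718 in depleted samples. The shares called by limma were 25.0% of luminal, 22.2% of basal and 90.9% of mesenchymal markers tested, beside 6.33% of all genes. The marker lists were chosen with earlier results of these data known. Leukocyte markers summed to at most 26 normalized counts, adipocyte markers to at most 179 and endothelial markers to at most 1787. The part of the luminal, basal and mesenchymal markers in the receptor differences was not tested.

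Per length of transcript, which allows a rough comparison between genes, NR3C1 was the most abundant of the 8 receptors. Deviations of a sample from its condition mean went with transcript length, at Spearman -0.47 in control replicate 2 and 0.39 in control replicate 3. Dividing by length does not remove this. In controls the level of NR3C1 was 624 ± 117 normalized counts per kb (SD, n = 3), followed by RARG at 529 ± 86.5, RXRA at 211 ± 49.97, VDR at 186 ± 39.7, RARA at 114 ± 45.3, PPARD at 73.2 ± 17.9, NR2F2 at 51.4 ± 11.0 and ESR1 at 23.7 ± 12.0. In that order only RARG with RXRA and NR2F2 with ESR1 had ranges that did not overlap, so the other neighbours did not differ beyond their spread. In depleted samples the levels per kb were 542 ± 161 for NR3C1, 350 ± 86.4 for RARG, 260 ± 51.5 for VDR, 151 ± 25.5 for RARA, 128 ± 7.7 for RXRA, 118 ± 15.3 for NR2F2, 78.3 ± 12.9 for PPARD and 3.26 ± 2.29 for ESR1. Here neighbours with overlapping ranges were RARG and VDR, RARA and RXRA, and RXRA and NR2F2. VDR and RARA stood below RXRA in controls and above it in depleted samples, and NR2F2 changed places with PPARD.

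**Figure D1:**
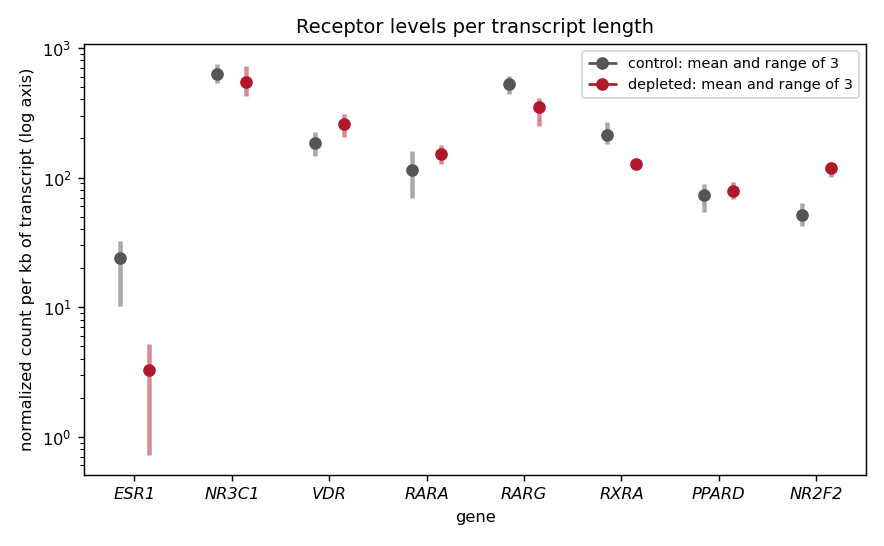
Normalized counts per kb of transcript (log axis) for the 8 receptors in control and depleted samples. Points are means and bars the range of 3 samples. NR3C1 and RARG sit highest in both conditions and ESR1 lowest, at 23.7 per kb in controls and 3.26 in depleted samples.

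The main question was which receptors differed between the 2 conditions. limma on log2(normalized count + 1), fitted to the 16988 genes whose mean reached 10 normalized counts, called 1076 genes, each with an adjusted p under 0.05 and at least a 2-fold change. This is 6.33% of the genes tested, with 741 higher (4.36%) and 335 lower (1.97%) in depleted samples. Of the 8 receptors limma called 0 and edgeR called 0, whereas DESeq2 called 2, ESR1 and NR2F2. The shares called over all genes were 5.72% with edgeR and 12.4% with DESeq2. An unadjusted limma p under 0.05 was reached by 3 of the 8 receptors (ESR1, RXRA and NR2F2), against 20.0% of all genes. Groups did not overlap for 4 of the 8, with 3 lower in depleted samples (ESR1, RARG and RXRA) and 1 higher (NR2F2), against 25.6% of all genes. The median log2 fold change of the 8 was -0.06, beside -0.029 over all genes.

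**Figure D2:**
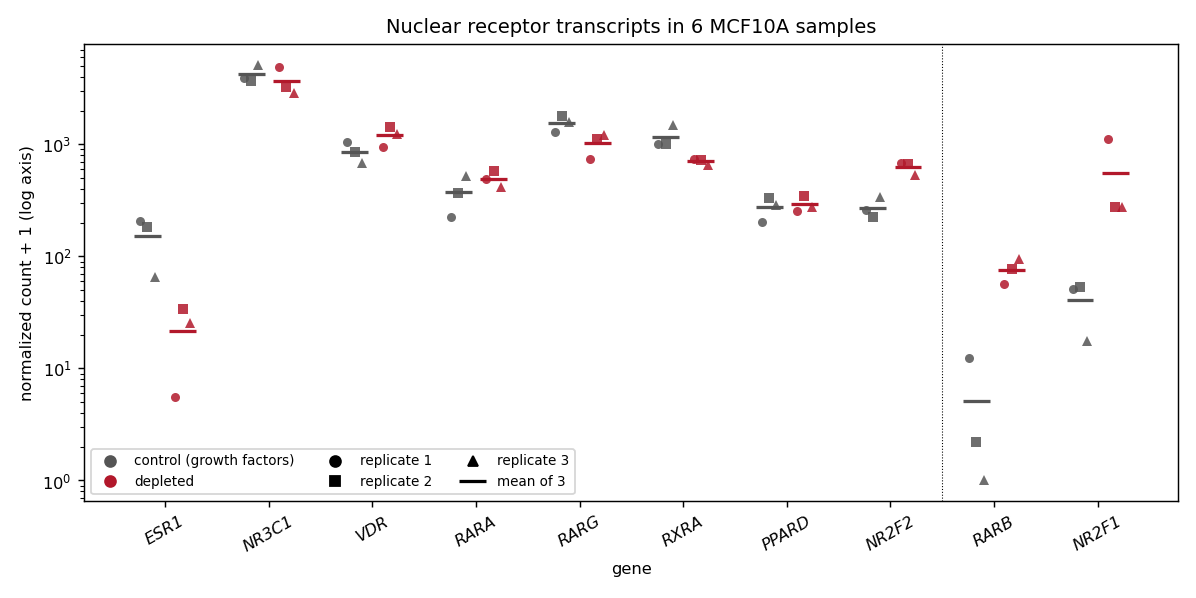
Normalized counts plus 1 (log axis) of the 8 receptors, left of the dotted line, and of the called receptors RARB and NR2F1, right of it. Each symbol is 1 sample and bars are means of 3. Control and depleted samples do not overlap for ESR1, RARG, RXRA, NR2F2, RARB and NR2F1.

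ESR1 (ENSG00000091831.20, hg38 chr6:151656691-152129619, plus strand) encodes estrogen receptor alpha. Its normalized counts were 205.5, 181.0 and 63.9 in control replicates 1 to 3 and 4.6, 32.8 and 24.6 in depleted replicates 1 to 3. All depleted samples were below all controls, and the depleted values rest on 5, 50 and 11 reads. The means were 150.2 ± 75.7 and 20.7 ± 14.5 (SD, n = 3), a log2 fold change of -2.99 (SE 0.79, 95% interval -4.79 to -1.20). With an adjusted limma p of 0.0632 it was not called, and edgeR gave 0.0759 and DESeq2 0.00175. ESR1 was called by limma with a pseudocount of 10 (log2 fold change -2.38, adjusted p 0.0479) and without control replicate 3 (-3.52, 0.0286). Without depleted replicate 1, whose value was lowest, it was -2.20 with an adjusted p of 0.107. Over the 6 fits without 1 sample each the adjusted p ranged from 0.0286 to 0.207. In bulk samples such as these, fewer cells that express a gene and less RNA per cell cannot be told apart.

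NR2F2 (ENSG00000185551.11, hg38 chr15:96325938-96340263, plus strand) encodes COUP-TFII, an orphan receptor known from vein and mesenchyme development. Normalized counts were 258.2, 222.0 and 335.5 in controls and 676.4, 663.5 and 529.9 in depleted samples. Every depleted sample was above every control, with little spread in either condition. The means were 271.9 ± 57.9 and 623.3 ± 81.1, a log2 fold change of 1.21 (SE 0.30, 95% interval 0.52 to 1.89). The adjusted limma p was 0.0521, just outside the threshold, with 0.0543 in edgeR and 0.00682 in DESeq2. NR2F2 was called once control replicate 3 was left out (log2 fold change 1.37, adjusted p 0.0169 in a range of 0.0169 to 0.210 over such fits), with no filter on low counts (0.0496) and after correcting for transcript length and GC (1.03, 0.0383). It was not called by limma without a trend (adjusted p 0.0833), with a replicate block (0.163) or with that correction plus the block (0.133).

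RXRA (ENSG00000186350.9, hg38 chr9:134317098-134440585, plus strand) encodes the retinoid X receptor that retinoic acid, vitamin D and lipid receptors pair with. Its normalized counts were 1007.6, 1014.7 and 1490.4 in controls and 733.1, 729.1 and 657.4 in depleted samples, with no overlap and the depleted samples close together. The log2 fold change was -0.70 (SE 0.28, 95% interval -1.33 to -0.08) and the adjusted limma p 0.194. After correction for transcript length and GC content the adjusted p was 0.0276 with a log2 fold change of -0.96, which is under 2-fold. RARG (ENSG00000172819.15, hg38 chr12:53210567-53232980, minus strand), the retinoic acid receptor typical of epidermis, had 1277.1, 1779.2 and 1571.0 normalized counts in controls and 733.1, 1126.4 and 1202.9 in depleted samples. These groups did not overlap either, and the log2 fold change was -0.61 (SE 0.30, 95% interval -1.30 to 0.07, adjusted limma p 0.305).

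NR3C1 (ENSG00000113580.13, hg38 chr5:143277931-143435512, minus strand) encodes the glucocorticoid receptor, whose ligand hydrocortisone was present in the control medium and left out of the depleted medium. Its normalized counts were 3897.6, 3650.4 and 5131.2 in controls and 4912.3, 3251.4 and 2862.0 in depleted samples. The groups overlapped, with depleted replicate 1 above 2 of the controls. The log2 fold change was -0.23 (SE 0.32, adjusted limma p 0.763), and its 95% interval of -0.95 to 0.50 leaves out a 2-fold difference in either direction. The range without each sample in turn was -0.45 to -0.06.

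VDR (ENSG00000111424.9, hg38 chr12:47841537-47943048, minus strand), the receptor for the active form of vitamin D, had 1040.2, 855.3 and 673.9 normalized counts in controls and 945.5, 1416.2 and 1236.5 in depleted samples. RARA (ENSG00000131759.16, hg38 chr17:40309180-40357643, plus strand), the broadly expressed retinoic acid receptor, had 225.6, 368.5 and 522.4 in controls and 485.1, 580.3 and 413.6 in depleted samples. Both genes overlapped between conditions, through depleted replicate 1 for VDR and control replicate 3 for RARA. The log2 fold changes were 0.49 for VDR (SE 0.29, 95% interval -0.18 to 1.16, adjusted limma p 0.418) and 0.47 for RARA (SE 0.37, -0.37 to 1.32, 0.551). Without depleted replicate 1 VDR was at 0.65 (adjusted limma p 0.366), and without control replicate 3 RARA was at 0.76 (0.145). A 2-fold higher level lies inside both intervals and a 2-fold lower one outside both. PPARD (ENSG00000112033.12, hg38 chr6:35342558-35428191, plus strand), a fatty acid receptor, had 201.8, 333.9 and 284.3 in controls and 255.4, 346.8 and 275.0 in depleted samples. Its log2 fold change of 0.12 (SE 0.33, 95% interval -0.64 to 0.87, adjusted limma p 0.898) changed sign under 4 alternatives, and a 2-fold difference in either direction lies outside the interval. On the opposite strand, exons of other genes share 291 bases with RARA and 19 with VDR, while those of ESR1, NR3C1, RARG, RXRA, PPARD and NR2F2 share none. The libraries were stranded, but the strand setting of the counting is not stated.

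**Figure D3:**
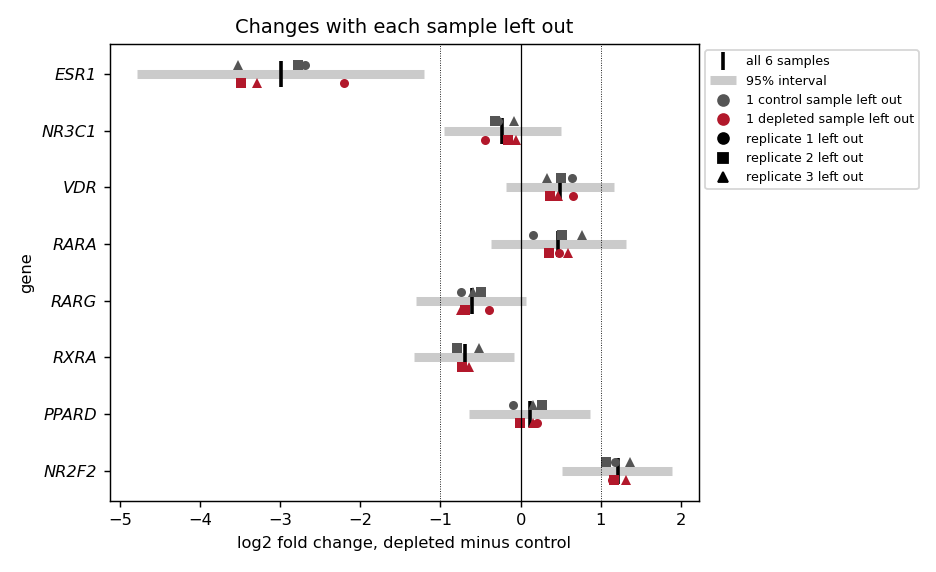
Log2 fold changes of the 8 receptors, depleted minus control, with all 6 samples (black bars), their 95% intervals (grey bands), and with each sample left out in turn (symbols). ESR1 ranged from -3.52 to -2.20 and NR2F2 from 1.07 to 1.37, and PPARD lay on both sides of 0.

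The 8 receptors were then set beside the rest of the family. Of 46 nuclear receptor genes considered 32 were listed and 30 tested, and 2 were called, RARB and NR2F1, both higher in depleted samples. This is 6.7% of those tested, close to the 6.33% of all genes. Both were among the 22 tested receptors other than the 8, and the median log2 fold change of the 30 was 0.14. The count was 7 without control replicate 3, 4 without depleted replicate 1, and 1 (NR2F1) without control replicate 2, depleted replicate 2 or depleted replicate 3. In the retinoic acid and COUP groups the called gene, RARB or NR2F1, was a paralog of the 8, and the difference between paralogs was not tested. RARB, the retinoic acid receptor that retinoic acid itself induces, had 11.3, 1.2 and 0.0 normalized counts in controls and 55.8, 75.4 and 93.9 in depleted samples. The control values rest on 9, 2 and 0 reads. RARB rose by a log2 fold change of 4.64 (SE 0.92, 95% interval 2.53 to 6.74, adjusted limma p 0.0221), against 0.47 for RARA and -0.61 for RARG. The call was lost without control replicate 2 (adjusted p 0.0702), depleted replicate 2 (0.0939) or depleted replicate 3 (0.0984), and edgeR gave 0.0584.

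NR2F1, which encodes COUP-TFI and is the close paralog of NR2F2, had 50.1, 52.1 and 16.7 normalized counts in controls and 1123.1, 275.4 and 272.8 in depleted samples. All depleted samples were above all controls, with depleted replicate 1 far above the other two. NR2F1 rose by a log2 fold change of 3.60 (SE 0.68, adjusted limma p 0.0182) and was called with each of the 6 samples left out in turn, at 2.92 (adjusted p 0.0382) without depleted replicate 1. Its exons share 158 bases with NR2F1-AS1 on the opposite strand. The remaining COUP gene, NR2F6, had a log2 fold change of 0.11 (adjusted limma p 0.893), so the COUP group held 1 called gene, NR2F2 just outside the threshold and 1 gene with little difference.

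The remaining paralogs of the 8 were not called. NR3C2, the mineralocorticoid receptor, had a log2 fold change of 0.86 (adjusted limma p 0.561), with control replicate 1 at 565.2 normalized counts and control replicates 2 and 3 at 102.5 and 86.6. RXRB differed by 0.14 (0.843), PPARA by -0.67 (0.333) and PPARG by -0.97 (0.522), all on the log2 scale with adjusted limma p. PPARG, the adipocyte regulator, varied widely within controls, from 216.4 to 921.0 normalized counts. ESR2, RXRG and PGR were not analysed here.

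**Figure D4:**
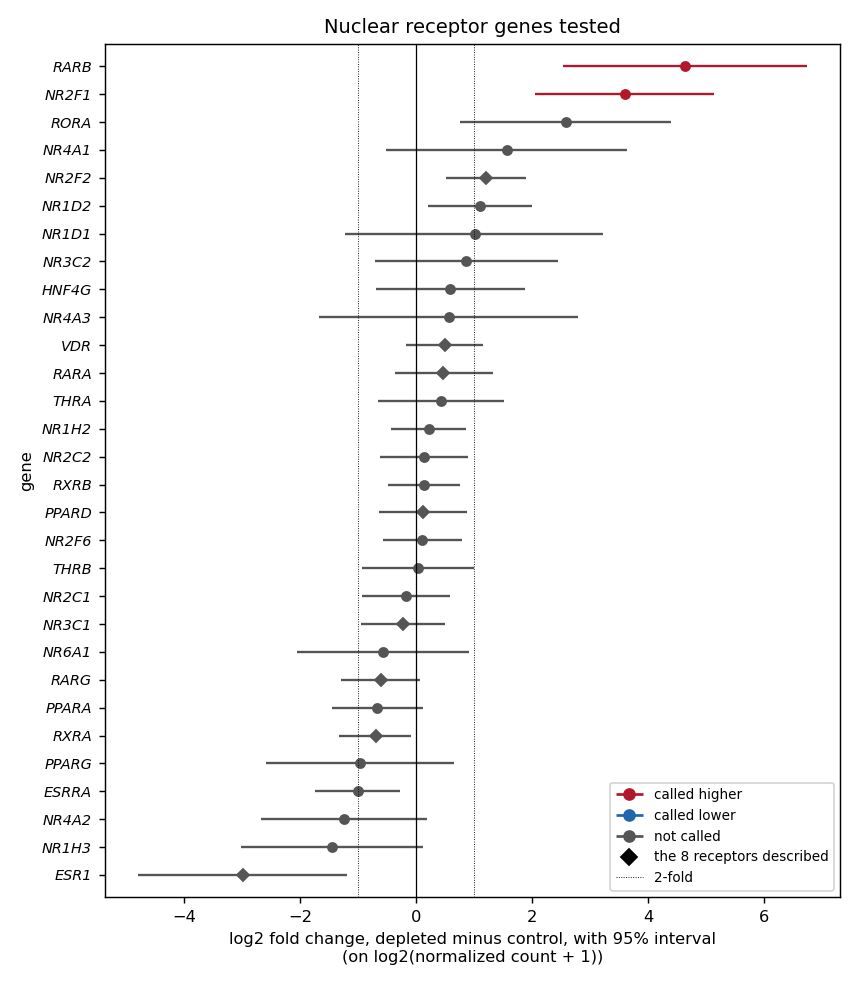
Log2 fold changes, depleted minus control, of the 30 nuclear receptor genes tested, with 95% intervals. Coloured genes were called (RARB and NR2F1, both higher), and diamonds mark the 8 receptors, of which ESR1 and NR2F2 lie farthest from 0.

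Coregulators and chaperones are partners that the receptors share. Of 31 coactivators, corepressors and chaperones, all tested, limma called 0 higher and 2 lower, 6.5% beside 6.33% of all genes, with a median log2 fold change of -0.20. An unadjusted limma p under 0.05 was reached by 3 of the 31, against 20.0% of all genes. edgeR called the same 2 genes, and DESeq2 also called the corepressor subunit TBL1X, higher at a log2 fold change of 1.41 (adjusted p 0.032), where limma gave 1.27 (0.142). The coactivator PPARGC1B, a partner of PPAR and estrogen-related receptors, fell by 3.97 on the log2 scale (SE 0.55, adjusted limma p 0.00488), from 684.2 ± 247.4 to 47.4 ± 32.9 normalized counts. FKBP5, a chaperone of the glucocorticoid receptor and also one of its targets, fell by 3.84 (SE 0.46, adjusted limma p 0.00268), from 13483.6, 10933.7 and 3839.5 in controls to 611.4, 610.4 and 512.0 in depleted samples. The corepressor NCOR1 had a log2 fold change of 0.07, and the chaperones HSP90AA1 and HSP90AB1 had 0.23 and -0.30.

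Genes that make, bind or inactivate the ligands were tested for 18 of 29, and limma called 3 (16.7%, beside 6.33% of all genes), 1 higher and 2 lower, with a median log2 fold change of -0.62 (8 called without control replicate 3). This list was chosen with earlier results of these data known, so the share describes the listed genes only. CRABP2, which carries retinoic acid to its receptors, had 94.0, 116.6 and 48.2 normalized counts in controls and 539.1, 323.2 and 348.8 in depleted samples. All depleted samples were above all controls, a rise of 2.27 on the log2 scale (SE 0.44, adjusted limma p 0.0195), although the call held in 2 of 6 fits without 1 sample each. LRAT, which stores retinol as esters, had 1722.0, 1676.1 and 1843.5 in controls and 190.4, 287.2 and 140.9 in depleted samples, and fell by 3.14 (SE 0.32, adjusted limma p 0.00157). The retinaldehyde dehydrogenase ALDH1A3, the last step to retinoic acid, had a log2 fold change of -0.37 (adjusted limma p 0.771). HSD11B2, which inactivates cortisol, fell by 7.24 (SE 0.95, adjusted limma p 0.00389), with 5281.2, 1038.7 and 807.6 in controls and 1.8, 20.3 and 20.1 in depleted samples.

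Textbook target genes were read receptor by receptor. Of the called ones RARB, CRABP2, HSD11B2 and FKBP5 were also counted in the lists above, and AREG among the luminal markers. Of 50 such genes 38 were tested and 12 called, 5 higher and 7 lower by limma (31.6% of those tested, beside 6.33% of all genes), with a median log2 fold change of -0.53 (7 called without depleted replicate 2 or 3). The target lists were chosen with earlier results of these data known, so their shares describe the listed genes and are no test of them. For the glucocorticoid receptor all 13 were tested, and limma called 0 higher and 5 lower (38.5%, beside 6.33% of all genes), with a median of -1.38, while NR3C1 itself was not called. An unadjusted limma p under 0.05 was reached by 6 of the 13, against 20.0% of all genes. The 5 called were FKBP5, HSD11B2, ZBTB16, SCNN1A and PER1. ZBTB16, a zinc finger gene that glucocorticoids induce, had 789.5, 450.5 and 386.6 normalized counts in controls and 3.7, 13.8 and 8.9 in depleted samples, and fell by 5.87 on the log2 scale (SE 0.56, adjusted limma p 0.00115). The sodium channel subunit SCNN1A fell by 2.96 (adjusted limma p 0.00404) and the clock gene PER1 by 2.40 (0.0364), with the PER1 call held in 2 of 6 fits without 1 sample each. CRISPLD2 lay on the other side of 0, with 15.0, 58.0 and 22.6 normalized counts in controls and 12.8, 1277.9 and 800.5 in depleted samples. Its limma log2 fold change was 3.10 (adjusted limma p 0.31, edgeR 0.0891), and it was called higher by DESeq2 (4.46, 0.00022) and by limma without depleted replicate 1. The other 7 did not pass in limma, among them TSC22D3 with a log2 fold change of -1.40 (adjusted limma p 0.428) and SGK1 with 0.38 (0.782). DESeq2 called TSC22D3 lower (-2.37, adjusted p 0.0306). Its normalized counts were 5679.7, 642.7 and 379.7 in controls and 459.5, 352.1 and 465.1 in depleted samples. KLF9 was also called lower by DESeq2 (-1.6, adjusted p 0.0468) and by limma without control replicate 3.

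For the retinoic acid receptors 9 of 11 targets were tested, and limma called 3 higher (RARB, CRABP2 and TGM2) and 0 lower. This is 33.3% of those tested, beside 6.33% of all genes. edgeR called CRABP2 and TGM2 higher, DESeq2 called RARB, CRABP2, TGM2 and PLAAT4 higher, and both called 0 lower. An unadjusted limma p under 0.05 was reached by 5 of the 9, against 20.0% of all genes, and the median log2 fold change was 1.01. TGM2, a transglutaminase that retinoic acid induces in many cells, had 206.8, 354.4 and 81.6 normalized counts in controls and 7038.6, 7552.6 and 10824.2 in depleted samples. This was a rise of 5.51 on the log2 scale (SE 0.50, adjusted limma p 0.00090). PLAAT4 had a log2 fold change of 2.74 (adjusted limma p 0.0564) and DHRS3, a retinaldehyde reductase, of 1.01 (0.131), with no overlap between conditions for either. Of the 9 targets 5 lay above 0 and 4 below, among the latter STRA6 (-1.35, adjusted limma p 0.252) and CYP26B1 (-0.72, 0.37). STRA6 was called lower by limma without control replicate 3.

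For the estrogen receptor 7 of 12 targets were tested and limma called 4 (57.1%, beside 6.33% of all genes), 2 in each direction, with a median log2 fold change of 0.08. IGFBP4 rose by 4.63 on the log2 scale (SE 0.46, adjusted limma p 0.00128) and CCND1, which encodes cyclin D1, by 2.66 (SE 0.58, 0.0313). AREG, an EGF receptor ligand, fell by 4.09 (SE 0.65, adjusted limma p 0.00840), from 950.0, 3951.0 and 565.6 normalized counts in controls to 85.1, 59.0 and 82.7 in depleted samples. CA12, a carbonic anhydrase, fell by 3.59 (SE 0.67, adjusted limma p 0.0180). The CCND1 and CA12 calls were lost in 4 and 3 of these 6 fits. GREB1, among the targets most used as readouts of the receptor, had a log2 fold change of -0.68 (adjusted limma p 0.677). For VDR 3 of 6 targets and for PPARD 6 of 8 were tested, with 0 called by limma or edgeR in either class. Of these, 1 VDR target and 0 PPARD targets had an unadjusted limma p under 0.05, against 20.0% of all genes. The median log2 fold change was 2.11 for VDR targets, with 2 above 0 and 1 below. For PPARD targets it was -0.1, with 3 above 0 and 3 below. PDK4, a PPARD target with a limma log2 fold change of -1.61 (adjusted limma p 0.252), was called lower by DESeq2 and by limma without control replicate 3, and CD14, a VDR target at -1.53 (0.355), by limma without depleted replicate 1. These genes also respond to other regulators, and the cells lost 4 additions at once, so the parts of the single additions cannot be told apart.

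**Figure D5:**
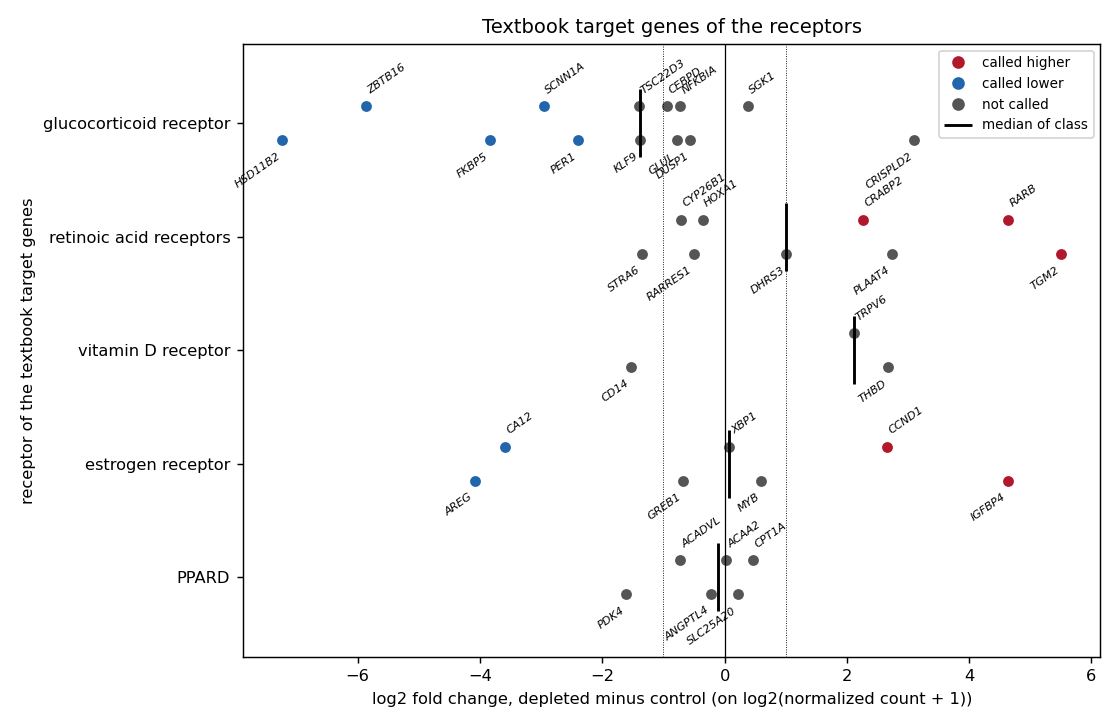
Log2 fold changes, depleted minus control, of 38 textbook target genes of the receptors, by receptor. Points are genes, coloured where called, and black bars are the class medians. These were -1.38 for glucocorticoid receptor, 1.01 for retinoic acid receptor, 2.11 for VDR, 0.08 for estrogen receptor and -0.1 for PPARD targets. The VDR class holds 3 tested genes.

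Over the 6 samples each receptor had a gene whose log2 values followed it most closely, searched among genes whose mean reached 100 normalized counts. These were NET1 for ESR1 (Pearson r = 0.9955), PCDHGB1 for NR2F2 (0.9975), PIK3C2B for RXRA (0.998), ID3 for RARG (0.9844), CEP192 for NR3C1 (0.9888), DLL1 for VDR (0.9935), OTUD1 for RARA (0.9925) and ZRSR2 for PPARD (0.9945). Each is the highest of many values over 6 points that share 2 conditions, so it describes these samples only.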

How the data were processed

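RNA-Seq was measured in 6 samples, grouped by their labels. The authors depleted ribosomal RNA, made stranded TruSeq libraries, read single ends, trimmed with cutadapt 1.6, mapped to hg38 with TopHat2, counted with HTSeq 0.6 on Gencode v22 and normalized with DESeq2 1.8.1. The deposited unit is a signal, gene counts over a size factor, and 100% were whole reads within 0.01 once divided by the value of 1 read. Depth was 7472418 to 28672630 reads on genes. Values are not divided by length, so levels between genes were divided by the length of the canonical transcript of Gencode v44, which names 18913 of 19198 identifiers. A longer gene draws more reads, and low genes such as ESR1 rest on few.

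Here limma 3.58.1 in R 4.3.3 (with a trend) was fitted to log2(normalized count + 1) of 16988 genes with a mean of at least 10, 3 depleted against 3 control samples. The added 1 shrinks fold changes of low genes, yet the log2 fold changes of ESR1 (-2.99) and RARB (4.64) were larger in size than with DESeq2 (-2.84 and 4.32). Called means a Benjamini-Hochberg adjusted p under 0.05 over all genes tested and at least 2-fold. Intervals are 95%. DESeq2 1.42.0 and edgeR 4.0.16 (quasi-likelihood, TMM) on the recovered reads, other pseudocounts, filters, scalings and thresholds, correcting for GC content and transcript length, a replicate block and leaving out each sample were alternatives. Same-numbered samples did not deviate together (correlations -0.073, -0.283 and -0.323), so the numbers were not taken as pairs. The receptors and all gene lists were chosen with earlier results of these data known, and a few listed genes are not reported here and left out of the counts. Genes named are the 8 receptors, their listed paralogs, every called nuclear receptor, from each other list up to 4 called genes in each direction with the largest change, and for each receptor the gene most like it. PER1, SCNN1A, CA12, PLAAT4, DHRS3, TSC22D3, KLF9, SGK1, CRISPLD2, PDK4 and CD14 were added after their values were seen. The same holds for TBL1X, STRA6, CYP26B1, GREB1, ALDH1A3, NCOR1, the HSP90 genes and the marker genes. Figures used Python 3.11.15 and matplotlib 3.10.9.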

Additional observations from a re-analysis of the deposited data

How the results depend on the processing

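Limits come first from 3 samples per condition and from few reads for ESR1 and RARB. Over all genes 1076 were called, and 705 with the length and GC correction plus the replicate block, 2112 with DESeq2, 418 at an adjusted p under 0.01, 1706 under 0.1, 4205 by a 2-fold ratio of means with no p, and 453 to 2474 with 1 sample left out, most without control replicate 3. Of the 8 receptors, 0 in the reported fit, 1 was called with a pseudocount of 10 (ESR1), 1 with no filter on low counts and 1 with the length and GC correction (NR2F2 both times), and 2 (ESR1 and NR2F2) with DESeq2, under 0.1, by the ratio, and without control replicate 3, where the range was 0 to 2. Nuclear receptors called were 2, against 1 (NR2F1) with edgeR, with the correction plus block and with a mean of at least 50, 0 under 0.01, 4 with DESeq2 and under 0.1, 9 by the ratio and 1 to 7 with 1 sample left out. Receptor partners went from 2 to 4 by the ratio and ranged from 2 to 3. Ligand handling genes went from 3 to 6 with DESeq2 and 10 by the ratio and ranged from 2 to 8. Target genes went from 12 to 7 under 0.01 and 22 by the ratio and ranged from 7 to 16. Among the fits with 1 sample left out, the highest of all 6 counts came without control replicate 3. Without depleted replicate 2 or 3 none of the counts was above its reported value. The cause was not tested. PPARD, at 0.12, was -0.06 with the correction, with or without the block, -0.09 without control replicate 1 and -0.01 without depleted replicate 2 (range 0.27 down to -0.09). RXRB was -0.002 with the correction, with or without the block, and NR2F6 -0.07 without control replicate 3 and up to 0.32 without another sample. With the replicate block alone 967 genes, 0 of the 8 receptors and 2 nuclear receptors were called, and the numbers were not taken as pairs. Of 144 alternatives of the 8 receptors, 133 kept direction and side of the threshold, 7 crossed into a call and 4 changed sign.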
